A study of Mus musculus with 6 samples.

Results

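Depletion of Brg1 was compared with control knockdown in mouse embryonic stem cells, using 4 of the 6 Hi-C libraries of the study and 47717 of the 48009 genomic bins of 50 kb that carried a subcompartment label in any library. The cells were E14TG2a, a male wild-type line kept with leukemia inhibitory factor, and every library came from cells transfected with esiRNA (pools of short interfering RNAs made by enzyme digestion) and harvested after 48 h. Control cells received esiRNA against EGFP, a gene they lack, and Brg1KD cells received esiRNA against Smarca4, the gene of Brg1. The other 2 libraries, from cells given esiRNA against Ino80 (Ino80KD), entered only where named. Each group had 2 libraries, and per the labels the replicate number is the batch, so control and Brg1KD were compared within batch 1 and within batch 2. Whether the replicates are separate cultures is not stated, so their spread may be technical. The files hold no read numbers and the depth is therefore unknown.

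Brg1 is the ATPase of the BAF chromatin remodelling complexes, which slide and evict nucleosomes at enhancers and promoters, and the embryonic stem cell form of BAF is known for holding open the regulatory elements of pluripotency genes. Hi-C counts contacts between genomic sites. Active, gene-rich chromatin contacts itself (compartment A) and inactive chromatin contacts itself (compartment B). A ladder of 8 subcompartment labels refines this division, from A.1.1, the most A-like, through A.1.2, A.2.1 and A.2.2 to B.1.1, B.1.2, B.2.1 and B.2.2, the most B-like. One step of the ladder is called a class here, and a shift is the class in Brg1KD minus that in control, negative towards B. Loops are point contacts between a pair of anchors of 10 kb each.

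The labels measure contact patterns and not RNA, so they do not check the knockdown. Smarca4 and Ino80 themselves lay in A.1.1 in all 6 libraries. Of 27 pluripotency genes placed on the autosomes, 27 lay in A in control replicate 1. Pou5f1, Esrrb, Tfcp2l1 and Dppa5a were in A.1.1 in every library, and Zfp42 was in A.1.2 in every library. Sox2 and Nanog were A.1.1 in both controls, but Sox2 was A.1.2 in Brg1KD replicate 1 and Nanog in Brg1KD replicate 2. Klf4 was A.1.2 in both controls and A.1.1 in Brg1KD replicate 1.

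Labels in Brg1KD differed from those in control by small steps, most of them towards B. In batch 1, 10226 bins had a lower label in Brg1KD than in control and 6860 a higher one, and in batch 2 the counts were 9963 and 6237. Moves towards B were therefore 59.9% of all moves in batch 1 and 61.5% in batch 2. Between the 2 control replicates the share was 52.5%, and between the Brg1KD replicates 53.5%. The moves were short: 89.3% and 89.6% of them covered a single class, and 382 and 359 bins moved by 3 classes or more. Moves between replicates were of similar length. A single class was covered by 91.2% of them in control and 91.6% in Brg1KD, and 287 and 343 bins moved by 3 classes or more. The mean shift over all bins was -0.0803 classes in batch 1 and -0.0891 in batch 2. Replicates of a group had the same label in 68.86% (control) and 68.32% (Brg1KD) of bins, and control and Brg1KD of a batch in 64.19% and 66.05%, so labels also differ between replicates of a group in nearly as many bins.

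Fewer bins moved in both batches. Of 8000 bins that moved in both batches, 4011 moved towards B in both, 1745 towards A in both, and 2244 in opposite directions. A further 22431 bins, 47.0%, moved in neither batch. In 3431 bins both Brg1KD labels lay below both control labels, which is 7.19% of all bins, and in 1492 bins, 3.13%, both lay above. These separated bins formed 739 runs towards B with a median length of 200 kb and 434 runs towards A with a median of 150 kb. When each label was replaced by its mid-percentile within its library the balance turned, to 3871 bins towards B (15.4%) and 21285 towards A, because a bin with the same label in all 4 libraries then differs wherever the size of its subcompartment differs.

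The transition matrix between the 8 labels showed an excess of downward moves in the middle of the ladder. At the border between A.2.1 and A.2.2, 1004 bins went down and 488 went up in batch 1, and 934 and 470 in batch 2. Between control replicates 1 and 2 the same border was crossed evenly, by 561 bins down and 557 up, and between the Brg1KD replicates by 587 and 637. At the border between A.2.2 and B.1.1, the boundary of the compartments, 832 bins went down and 542 up in batch 1 and 899 and 619 in batch 2, against 612 and 662 between control replicates and 594 and 695 between Brg1KD replicates. From A.1.2 to A.2.1 the moves down were 853 against 681 up in batch 1 and 883 against 522 in batch 2. Between control replicates 1 and 2, 410 bins went down this last border and 879 up, a larger imbalance in the other direction. Replicates have no order, so the balance between them is a measure of size only. Read in either direction, the borders A.2.1 to A.2.2 and A.2.2 to B.1.1 were those where both batches were more uneven than both replicate pairs.

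**Figure D1:**
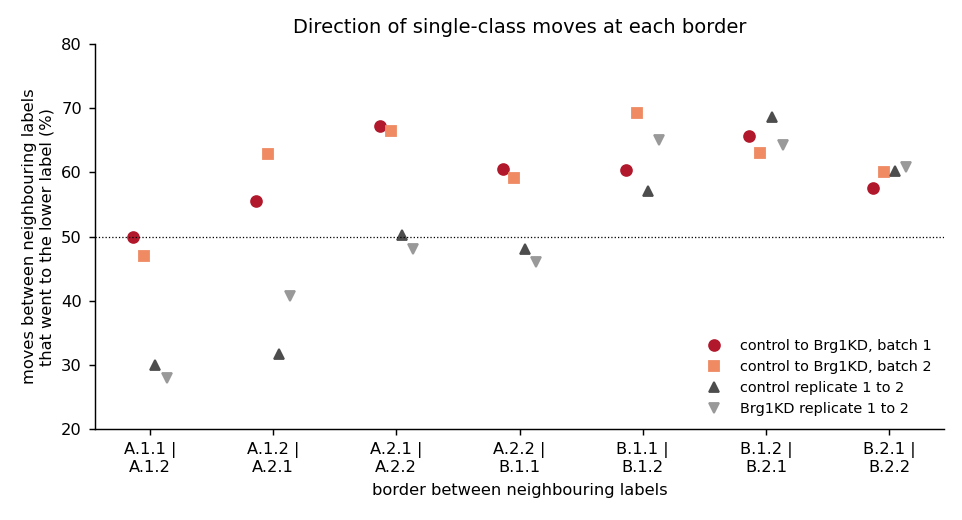
Each point is the percentage of moves across a border between neighbouring labels that went to the lower, more B-like label (y axis) at each of the 7 borders (x axis), for control to Brg1KD within each batch and for replicate 1 to replicate 2 within each group; the dotted line marks an even balance. Between A.2.1 and A.2.2 the within-batch values are 67.3% and 66.5% and the replicate values 50.2% and 48.0%, whereas between B.2.1 and B.2.2 all 4 values lie between 57.6% and 60.8%.

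The ends of the ladder behaved differently. At the top, A.1.1 exchanged 872 bins down for 872 up in batch 1 and 781 for 879 in batch 2, and its share of the genome was 13.4% and 15.02% in the controls and 13.43% and 15.17% in Brg1KD. At the bottom, 2455 bins fell from B.2.1 to B.2.2 and 1806 rose in batch 1, and 2443 and 1631 in batch 2, but 2101 fell and 1389 rose from control replicate 1 to 2. B.2.2 had the largest change in share of any label, from 21.29% and 22.82% of bins in the controls to 22.88% and 24.83% in Brg1KD, by 1.59 percentage points in batch 1 and 2.01 in batch 2. The groups did not overlap (exact permutation p = 0.333). From B.1.2 to B.2.1 the moves were 1842 down and 966 up in batch 1, beside 1899 and 865 between the control replicates. Replicate 2 held more A.1.1 and more B.2.2 than replicate 1 in both groups, so moves between the batches at these borders were as uneven as those between the conditions. Direct long jumps were rare: of the 6392 bins in A.1.1 in control replicate 1, 11 were B.1.1, 6 were B.1.2, 2 were B.2.1 and 0 were B.2.2 in Brg1KD replicate 1.

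Shares of the genome above each border were lower in Brg1KD down most of the ladder. The share at or above A.2.1 was 32.65% and 32.71% in the controls and 31.24% and 31.48% in Brg1KD, a difference of -1.33 percentage points (-1.41 in batch 1 and -1.24 in batch 2). Control and Brg1KD values did not overlap, and the gap was larger than the SD of 0.043 between the controls and 0.167 between the Brg1KD libraries. With 2 libraries against 2 an exact two-sided permutation test cannot go below p = 0.333, which was its value here, so no share can pass 0.05. The direct difference from Ino80KD at this border was 0.0398 percentage points (exact permutation p = 1.0). For the whole of compartment A it was 0.105. Against the same controls, Ino80KD differed by -1.37 percentage points at or above A.2.1 and by -1.05 for the whole of A, where Brg1KD differed by -0.944. The share of B.2.2 was higher than in control by 1.52 percentage points in Ino80KD and by 1.8 in Brg1KD. Brg1KD minus control was -1.68 percentage points for the share at or above B.1.1, -2.12 at or above B.1.2 and -1.8 at or above B.2.1, without overlap of the groups in each case, but -0.697 with overlap at or above A.1.2. The gap between groups was narrow at 2 of these borders. Control replicate 2 and Brg1KD replicate 1 both stood at 59.47% at or above B.1.2, and at 77.18% and 77.12% at or above B.2.1. The SDs of control and Brg1KD were 1.59 and 1.4 at the former and 1.08 and 1.38 at the latter.

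How firmly a bin held its label depended on where it stood. Of the bins with the same label in both controls, both Brg1KD libraries kept that label in 86.6% for A.1.1 and 78.6% for B.2.2, and in 45.0% for A.2.1, 42.3% for A.2.2, 39.4% for B.1.1 and 37.9% for B.1.2. Among the A.2.1 bins 16.7% were lower in both Brg1KD libraries and 4.89% higher. The corresponding figures were 16.9% and 6.64% for A.2.2 and 19.7% and 6.35% for B.1.1. Labels at the ends can only move inwards, so their values are not comparable with those of the middle labels.

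**Figure D2:**
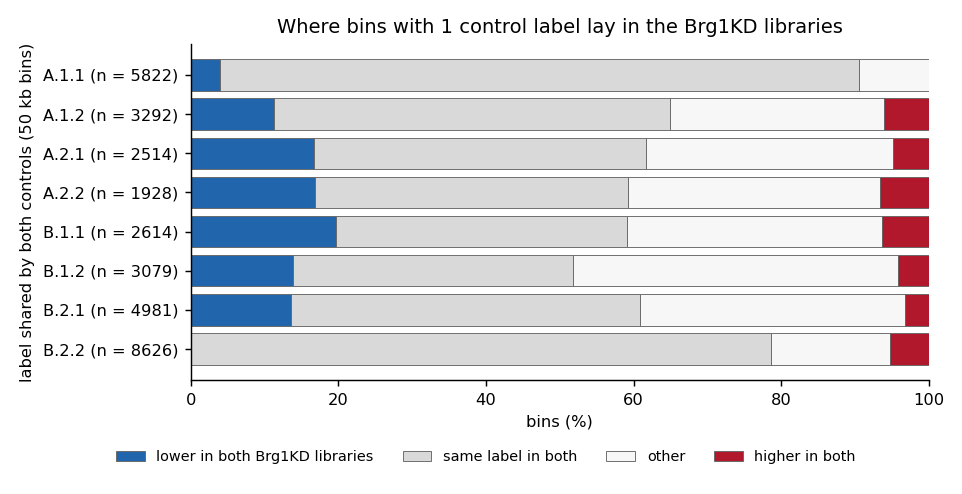
Bars show, for 50 kb bins that had the same label in both control libraries (rows, with the number of bins), the percentage that was lower in both Brg1KD libraries, kept the label in both, was higher in both, or did none of these. The lower segment exceeds the higher segment in each of the 6 middle labels, for example 16.7% against 4.89% in A.2.1.

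Bins without genes shifted further towards B than bins with genes. Bins that overlap no protein-coding gene shifted by -0.111 classes in batch 1 and -0.12 in batch 2, and bins that overlap at least 1 gene by -0.0583 and -0.067. Among bins of the same control label, gene-free bins were more often separated towards B in every label that can move lower. Of the A.2.1 bins, 25.3% of the 620 gene-free bins and 13.9% of the 1894 with a gene were separated towards B. Of the A.2.2 bins the values were 25.4% and 13.4%, and of the B.1.1 bins 25.8% and 15.5%. Higher on the ladder they were 19.8% and 9.77% for A.1.2 and 9.86% and 3.48% for A.1.1. The gap was narrower for B.1.2 (15.0% and 12.9%) and B.2.1 (14.7% and 12.1%). In B.2.2, which cannot move lower, the mean shifts were 0.162 and 0.13 without genes and 0.158 and 0.128 with genes. Counted by gene, the shift was correspondingly small: over 20371 protein-coding genes placed by their midpoints the mean was -0.00454 classes, 884 genes (4.34%) lay in bins separated towards B and 671 (3.29%) towards A, and 34.7% of all genes were in A.1.1 in both controls.

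Runs of equal label were fewer in Brg1KD for A.1.2, A.2.1 and B.1.2. A.1.2 formed 709 and 712 runs in the controls and 679 and 676 in Brg1KD, a mean of 710.5 ± 2.12 (SD, n = 2) against 677.5 ± 2.12, A.2.1 formed 643 and 615 against 578 and 589, and B.1.2 717 and 697 against 667 and 676. None of these groups overlap, at an exact permutation p of 0.333, the smallest possible. Runs of B.2.2, the deepest inactive class, numbered 563 and 608 in the controls and 606 and 648 in Brg1KD, and these groups overlap. The length of an average run over all labels was 463.4 ± 8.13 kb in control and 470.1 ± 6.72 kb in Brg1KD (n = 2 each, exact permutation p = 0.667), and the median was 350 kb in each of the 4 libraries. Joined into A and B domains, the runs numbered 1714 ± 38.9 and 1716 ± 77.1, while the length of A fell from 948.5 ± 3.89 to 925.3 ± 8.59 Mb. The number of domains thus differed by less than the spread between replicates, while the length of A fell by 26.5 Mb in batch 1 and fell by 19.8 Mb in batch 2.

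Bins that changed compartment in both batches went more often from A to B than from B to A. With both controls in A and both Brg1KD libraries in B there were 478 bins (1.00% of all bins, 23.9 Mb), and 215 bins (0.451%, 10.75 Mb) crossed from B to A. Within single batches 1317 and 1274 bins went from A to B and 810 and 880 from B to A, whereas between replicates 867 and 805 went from A to B and 929 and 980 the other way. The A to B bins formed 131 runs on 19 chromosomes with a median of 150 kb and a maximum of 700 kb, and the B to A bins 76 runs on 18 chromosomes with a median of 100 kb. Of the A to B runs 67 adjoined a domain that was B in both controls on 1 side, 8 on both sides and 56 on neither. In 55.0% of the A to B bins and 60.5% of the B to A bins the move was a single class in both batches, from A.2.2 to B.1.1 or the reverse. Leaving out 1 library at a time gave 817 to 868 A to B bins and 442 to 546 B to A bins, since fewer libraries then have to meet the condition.

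The A to B runs held 128 protein-coding genes, or 5.36 per Mb, and the B to A runs 85, or 7.91 per Mb, beside 8.54 per Mb over all bins. The longest A to B run covered chr1:88300001-89000000 and held Trpm8, a cold-sensing ion channel, Spp2, a secreted phosphoprotein, Glrp1 and Arl4c, a small GTPase of the ARF-like family. It was A.2.1 in control replicate 1, A.2.1 or A.2.2 in control replicate 2, B.1.1 in Brg1KD replicate 1, B.1.1 or B.1.2 in Brg1KD replicate 2, and A.2.2 in both Ino80KD libraries. Its mean shift was -2.0 classes. A B to A run of 450 kb, chr17:44700001-45150000, held Supt3, a subunit of the SAGA coactivator, and 4930564C03Rik. It was B.1.1 in both controls and both Ino80KD libraries and A.2.2 in both Brg1KD libraries. Promoters of these runs are printed as examples of how far CpG content differs within a run, with the poorest and the richest of the first run and both of the second. Each is 300 bases, 250 before and 50 after the transcription start, read 5′ to 3′ on the gene's strand from RefSeq GRCm38.p6 (the assembly that mm10 names), with CpG dinucleotides in capitals.
Trpm8: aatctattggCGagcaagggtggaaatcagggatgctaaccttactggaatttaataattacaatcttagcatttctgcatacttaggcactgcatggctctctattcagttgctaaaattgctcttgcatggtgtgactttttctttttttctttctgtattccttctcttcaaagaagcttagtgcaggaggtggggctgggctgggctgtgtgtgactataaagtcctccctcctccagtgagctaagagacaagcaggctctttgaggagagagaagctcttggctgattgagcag
Arl4c: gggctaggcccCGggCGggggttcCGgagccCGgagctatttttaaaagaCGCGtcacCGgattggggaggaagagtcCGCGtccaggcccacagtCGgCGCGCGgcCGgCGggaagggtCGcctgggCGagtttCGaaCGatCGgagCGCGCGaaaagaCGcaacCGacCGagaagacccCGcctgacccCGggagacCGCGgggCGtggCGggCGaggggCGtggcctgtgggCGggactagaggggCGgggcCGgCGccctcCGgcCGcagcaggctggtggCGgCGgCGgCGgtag
Supt3: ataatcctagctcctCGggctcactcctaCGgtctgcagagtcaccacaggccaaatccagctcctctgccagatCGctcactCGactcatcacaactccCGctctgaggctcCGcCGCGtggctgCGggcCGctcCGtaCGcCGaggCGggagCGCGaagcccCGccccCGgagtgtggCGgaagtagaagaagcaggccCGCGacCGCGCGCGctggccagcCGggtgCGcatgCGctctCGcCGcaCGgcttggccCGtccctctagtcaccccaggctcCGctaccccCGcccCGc
4930564C03Rik: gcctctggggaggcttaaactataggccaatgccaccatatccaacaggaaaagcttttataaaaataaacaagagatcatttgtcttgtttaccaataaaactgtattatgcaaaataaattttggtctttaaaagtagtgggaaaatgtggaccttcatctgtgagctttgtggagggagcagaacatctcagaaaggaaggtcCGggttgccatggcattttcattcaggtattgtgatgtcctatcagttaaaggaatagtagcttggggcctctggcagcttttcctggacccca
They lie at chr1:88306485-88306784 (Trpm8, plus strand), chr1:88702142-88702441 (Arl4c, minus strand), chr17:44776916-44777215 (Supt3, plus strand) and chr17:44880836-44881135 (4930564C03Rik, minus strand). Trpm8 has 1 CpG and Arl4c 44, while Spp2 has 3 and Glrp1 5, so that 1 promoter of this run is CpG-rich. Supt3 has 35 and 4930564C03Rik 1. Over all 116 promoters in A to B bins the median was 10 CpG, over 72 in B to A bins 9, and over the 19917 promoters placed on autosomes 14. A promoter with a CpG observed over expected ratio of at least 0.6 was found in 44.0% of the A to B set, 38.9% of the B to A set and 49.3% of all, beside 63.5% in A.1.1 and 10.5% in B.2.2.

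Next in length from A to B came chr1:178450001-179100000 with Kif26b, a kinesin-family protein (650 kb, mean shift -1.04), and chr13:14150001-14650000 with Hecw1, a ubiquitin ligase, the mitochondrial ribosomal gene Mrpl32, the proteasome gene Psma2 and AW209491 (500 kb, -1.5). The latter was A.2.2 in both controls, B.1.2 and B.1.1 in Brg1KD and B.1.1 in both Ino80KD libraries. At chr7:83750001-84200000 the run held Cfap161, Tlnrd1, Mesd (a chaperone of LDL-receptor-related proteins), Cemip (a hyaluronan-binding protein) and Abhd17c, at -1.33. A further 5 runs of 450 kb moved by exactly 1 class. They held Sorcs2 and Psapl1 on chromosome 5, Barx2, a homeobox factor, on chromosome 9, and Iyd and Plekhg1 on chromosome 10. The run at chr10:118150001-118600000 held the cytokine genes Il22, Iltifb and Ifng with Mdm1, and that at chr11:67850001-68300000 held Usp43, Cfap52, Stx8 and Ntn1, the axon guidance factor netrin, the latter a tie outside the 8 longest and named after its values were seen. The Barx2 and Ntn1 runs were B.1.1 in both Ino80KD libraries as well. The labels that gave these shifts also selected the runs, so the shifts are a description.

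Among the longest B to A runs, chr13:74600001-74850000 moved furthest, by 2.5 classes on average, from B.1.2 and B.1.1 in the controls to A.2.1 in both Brg1KD libraries. It held Gm46430, Erap1, an aminopeptidase that trims antigenic peptides, and Cast, the calpain inhibitor calpastatin. Both Ino80KD libraries were B.1.1 there, and all 5 of its bins were called in the direct limma contrast with Ino80KD (common variance). That contrast uses the Brg1KD labels by which the run was chosen and is given as a description. The runs at chr4:46700001-47100000 (Gabbr2, a GABA-B receptor subunit, and Anks6), chr9:83400001-83800000 (Lca5, a ciliary protein, Sh3bgrl2 and Elovl4, a fatty acid elongase) and chr3:32850001-33200000 (Usp13, a deubiquitinase, and Pex5l) each went from B.1.1 to A.2.2 in both batches.

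Chromosome 18 was the autosome with a shift towards A in both batches. Its mean shift was 0.105 and 0.0184 classes, while 16 chromosomes shifted towards B in both. Its share of bins in A was 33.9% and 34.2% in the controls and 37.2% in each Brg1KD library, and no other chromosome had a higher A share in both Brg1KD libraries than in both controls. With 3.65% of the bins it held 18.1% of the B to A bins, 39 of 215, and 3 A to B bins. The counts without it were 176 B to A and 475 A to B bins. In Ino80KD its A share was 33.9% and 36.1%. Its longest B to A runs were chr18:84000001-84550000 with Tshz1, a zinc finger homeobox factor, Zadh2 and Zfp407, chr18:31150001-31600000 with Syt4, a synaptotagmin, and Slc25a46, and chr18:56750001-57050000 with Marchf3, a ubiquitin ligase. The lowest mean shift, -0.178 classes, was that of chromosome 8, with 40 A to B and 2 B to A bins and an A share of 42.0% and 38.9% in the controls and 37.5% and 36.2% in Brg1KD. Chromosome 10 had 40 and 1 crossing bins, chromosome 19 had 18 and 0, and chromosome 1 had 57 and 7. In Ino80KD the A share of chromosome 8 was 38.2% and 38.0%, also below both controls. That of chromosome 19 was 41.8% and 44.6% in Ino80KD, beside 48.5% and 47.7% in the controls. For chromosomes 1 and 10 the A shares of Ino80KD and control overlapped. The labels' text does not say whether subcompartments were set per chromosome.

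**Figure D3:**
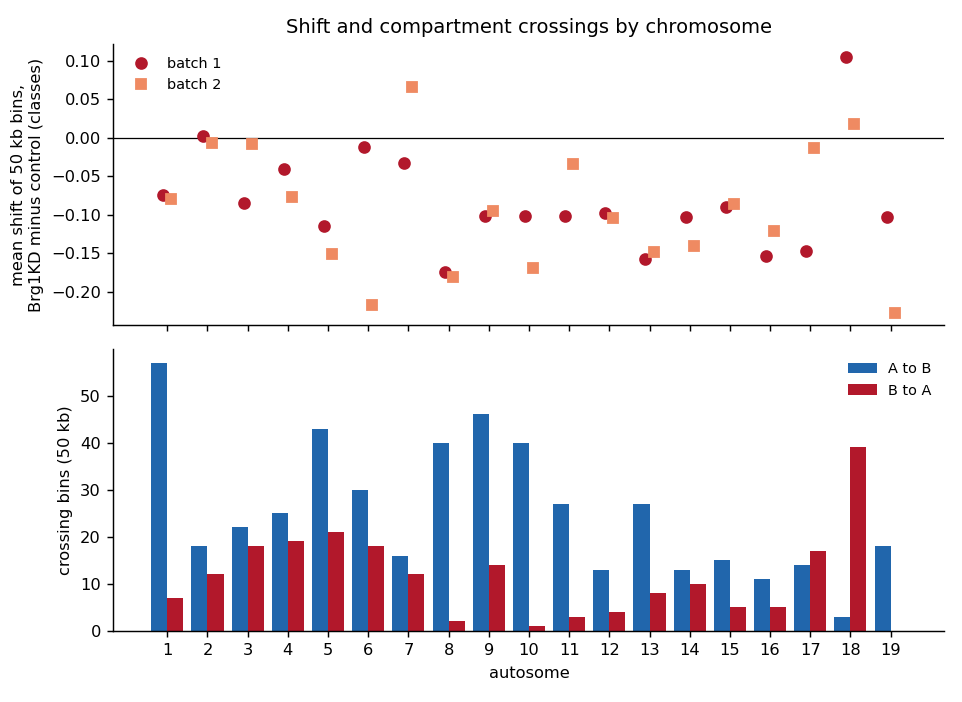
The upper panel gives the mean shift of all 50 kb bins of each autosome in classes, Brg1KD minus control within batch 1 and within batch 2; the lower panel gives the number of bins that crossed from A to B or from B to A in both batches. Chromosome 18 lies above 0 in both batches and has 39 B to A and 3 A to B bins, and chromosome 8 lies below 0 with 2 and 40.

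Few bins moved far. Moves of 3 classes or more in the same direction in both batches were found in 33 bins towards B and 24 towards A, in 49 runs of which the longest spanned 150 kb, with 25 protein-coding genes. Nt5e, an enzyme that makes adenosine, lay in A.2.2 and A.1.2 in the controls and in B.2.1 in both Brg1KD libraries. Kctd12 went from A.2.1 in both controls to B.2.1 and B.2.2, and Setmar from A.1.2 to B.1.2 in both pairs. Krt17 and Krt42, a keratin pair, went from A.1.1 to B.1.2 and B.1.1, and were B.1.1 and B.1.2 in Ino80KD. Towards A, Ncapg, a subunit of condensin, and its neighbour Lcorl went from B.2.1 in both controls to A.2.2 in both Brg1KD libraries (limma, common variance, adjusted p = 1.44e-07). Gpr137c rose from B.1.2 and B.1.1 to A.1.1 in both Brg1KD libraries, Mrc2, a collagen receptor, from B.2.1 to A.2.2 and A.2.1, and Zfp703 from A.2.2 and B.1.1 to A.1.1. The runs of Nt5e and Ncapg spanned 150 kb, and those of the other genes named a single bin of 50 kb. Those of Nt5e, Kctd12, Setmar, the keratin pair, Gpr137c and Mrc2 adjoined, on 1 side, a bin of the new compartment in both controls. They thus lay at a border of A and B, whereas the run of Ncapg did not. These places were chosen by the size of their shift in the same labels. That shift alone sets the adjusted p of this fit, so the value printed for Ncapg is not a test.

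limma was fitted to the ranks of all bins. With the moderated variances of the planned design it called 2304 bins (4.83%), 1576 towards B and 728 towards A, but 2294 of them are among the 18941 bins whose replicates did not differ at all in any group, so its calls are not read as tests. With 1 variance common to all bins, 1134 bins (2.38%) were called towards B and 488 (1.02%) towards A at an adjusted p under 0.05, which needs a mean shift of 1.5 classes. In this fit the adjusted p depends only on the size of the mean shift, 0.0466 at 1.5 classes and 0.00207 at 2. It takes no account of the spread between a bin's own replicates. Adjusted p-values printed for named genes therefore restate their shift. The 2 fits shared 91 calls. The direct contrast of Brg1KD with Ino80KD called 515 bins (1.08%), 260 towards B in Brg1KD and 255 towards A. As a description, long regions that moved by 1 class in every library, ranked 6 to 10 by summed shift under the moderated fit, included a run with the milk casein genes Csn1s1 and Csn2 and the Ugt2 and Sult1 enzymes (chr5:87300001-87850000, B.2.1 to B.2.2), Eif4e3, Gpr27 and Prok2 (chr6:99600001-100150000, A.1.2 to A.2.1) and Ldb2 (chr5:44300001-44850000, B.2.1 to B.2.2). In both Ino80KD libraries these regions had the same label as in Brg1KD. A region with Catsperb and Tc2n (chr12:101100001-101700000, B.2.1 to B.2.2) was B.2.1 in both Ino80KD libraries. Towards A the regions included Anapc1 and Mertk (chr2:128600001-129050000, A.1.2 to A.1.1) and Arl4a, Scin and Lsmem1 (chr12:39700001-40200000, A.2.2 to A.2.1). Both of these had the control label in both Ino80KD libraries.

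Over all genes, 4.34% lay in bins separated towards B and 3.29% in bins separated towards A, and the lists of stem cell and lineage genes hold too few genes to be set apart from these shares. Of 27 pluripotency genes 16 had an unchanged label in both batches, none lay in bins separated towards B and 2 towards A, the Nodal antagonists Lefty1 and Lefty2, which were A.1.2 in both controls and A.1.1 in both Brg1KD and both Ino80KD libraries (limma, common variance, adjusted p = 0.236). Of 14 formative and primed genes, 30 Polycomb genes, 15 INO80 subunits and 39 Hox cluster genes none was in a separated bin. Separated towards B were 1 of 16 primitive endoderm, 2 of 18 mesendoderm, 1 of 19 neuroectoderm and 2 of 11 trophectoderm genes, and 1 trophectoderm gene was separated towards A. Lama1, a basement membrane laminin of primitive endoderm, went from A.2.2 in both controls to B.1.1 and B.1.2 and stayed A.2.2 in both Ino80KD libraries (limma, common variance, adjusted p = 0.0466). Evx1, a mesendoderm homeobox gene, went from A.1.1 to A.1.2 and A.2.1, and Neurog1, a proneural factor, from A.1.2 and A.1.1 to A.2.1, both with the same adjusted p in limma. In Ino80KD, Evx1 was A.2.1 and A.2.2 and Neurog1 A.1.1 in both libraries. Gsc, Ascl2 and Elf5 were 1 class lower in both batches, and Cdx2, the trophectoderm homeobox gene, 1 class higher. Each had a limma adjusted p of 0.236 (common variance). This value and the 0.0466 above restate the size of shifts in the labels that selected these genes, so neither is a test.

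Of 31 BAF subunits 25 moved in neither batch, 1 was separated towards B and 1 towards A. Phf10, a subunit of the PBAF form, rose from B.1.1 and A.2.1 to A.1.2 (mean shift 2.0, limma, common variance, adjusted p = 0.00207), and Smarce1, the BAF57 subunit, was 1 class lower in both batches (A.1.2 to A.2.1, adjusted p = 0.236). Of 27 genes of chromosome architecture 1 was separated towards B and 2 towards A. Those 2 were B in both controls and A in both Brg1KD libraries, as were 85 of all 20371 genes. They were Ncapg and Top2b, a DNA topoisomerase (B.1.1 to A.2.2, limma adjusted p = 0.236). Esco2, a cohesin acetyltransferase, was 1 class lower in both batches. Of 24 other remodeller genes 1 was separated, Mbd2, which was 1 class higher.

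Large gene families were counted in the same way, beside 4.34% of all genes separated towards B and 3.29% towards A. Their members share bins, so the counts are not of independent genes, and differences between families were not tested. Of 349 zinc finger genes named Zfp, which lie in 304 bins, 29 were separated towards A and 9 towards B, and of 333 vomeronasal receptors 35 and 10. Of 1101 olfactory receptors 42 were separated towards A and 12 towards B. Of 324 solute carriers 6 were separated towards A and 19 towards B, among them Slc40a1, the iron exporter, and Slc2a2, the glucose transporter GLUT2, which both crossed from A to B (limma, common variance, adjusted p = 0.0466). Slc13a5, a citrate transporter, fell from A.1.2 in both controls to B.1.1 and A.2.2. Of 109 keratin genes 15 were separated towards A and 3 towards B. Krt10 and Krt24, in different bins of chromosome 11, went from B.2.1 and A.2.2 in the controls to A.2.1 in both Brg1KD libraries, against B.2.1 and A.2.2 in Ino80KD. Of 67 histone genes, which lie in 17 bins, 13 were separated towards B and 3 towards A. The linker histones H1f1 and H1f2 were A.1.2 in both controls and A.2.1 in both Brg1KD libraries, and H1f4 was A.1.1 there (limma adjusted p = 0.236 for each). The median shift was 0.0 in each of these families except the vomeronasal receptors at 0.5.

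Loops were deposited as 1 merged list per group, taken here as pooled from both libraries, with no score per loop, so they have no replicate check. The control list held 5903 loops and the Brg1KD list 6013. With both anchors starting within 20 kb of each other, 4697 control loops (79.6%, exact binomial 95% interval 78.5% to 80.6%, which covers counting error only) had a partner in Brg1KD, and 1314 Brg1KD loops (21.9%) had none in control. The median loop was 250 kb long in both lists. Most unmatched loops shared an anchor with the other list: of 1206 unmatched control loops, 250 had both anchors used by other Brg1KD loops, 647 had 1, and 309 had neither. A gene start lay in an anchor of 25.9% of control and 25.6% of Brg1KD loops.

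Long loops were fewer in the Brg1KD list. There were 242 control loops of 1 Mb or longer (4.1% of the list) and 212 in Brg1KD (3.53%). Of the control ones 61.6% were matched (interval 55.1% to 67.7%), against 83.6% of those of 100 to 200 kb. Of the Brg1KD ones 68.9% were matched. Each of the shorter length classes held more loops in Brg1KD than in control. The depth of the merged maps is unknown.

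**Figure D4:**
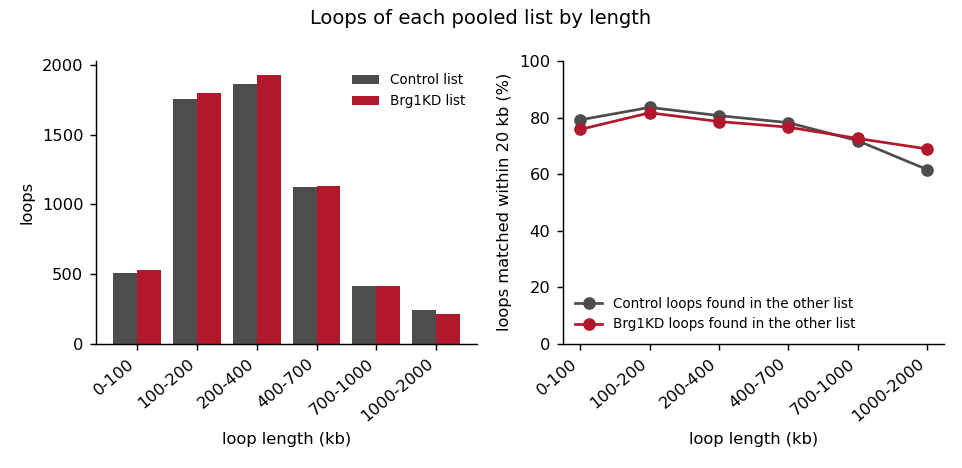
Left, the number of loops in the control and Brg1KD lists by distance between anchor starts (kb); right, the percentage of each list's loops with a partner in the other list, both anchors within 20 kb. In the longest class the control list has 242 loops and the Brg1KD list 212, and 61.6% and 68.9% of them are matched.

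In embryonic stem cells, silent genes bound by Polycomb can contact each other over long distances. Of control loops of 1 Mb or longer with a gene start in both anchors there were 22, of which 12 (54.5%, exact interval 32.2% to 75.6%) had a Brg1KD partner and 10 had none; the interval covers counting error only. The Brg1KD list held 9 such loops, and all 9 were matched (exact interval from 66.4% upwards). The Brg1KD partners of the control loops Lhx1 to Tbx4, Foxo1 to Nhlrc3 and Proser1, and Dync1i1 to Dlx6 are not among the 9. They lack a gene start in an anchor, so 22 against 9 is not a count of lost loops. These are counts from 1 merged list per group, and the difference between them was not tested. The longest of the unmatched control loops joined Insm1 to Foxa2, the endoderm factor, over 1820 kb. The next joined Osr1 to Kcns3 (1580 kb), the homeobox genes Vax2 and Emx1 (1470 kb), Skida1 to the pancreatic factor Ptf1a (1400 kb), Nat8l to the homeobox gene Hmx1 (1390 kb) and the Iroquois genes Irx1 and Irx4 (1300 kb). The other 4 joined Barhl2 to Gfi1 (1270 kb), Gpa33 to Uck2 (1150 kb), Vmn1r188 to Vmn1r222 (1150 kb) and Col4a1 and Col4a2 to Sox1 (1080 kb). Allowing 50 kb between anchors matched none of the 10.

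Of the matched control loops of this kind, the longest joined the olfactory receptor genes Olfr1009 and Olfr1126 (1730 kb). Others were those of Sp9 to the Hoxd11 and Hoxd12 genes (1400 kb), En2 to Mnx1 (1310 kb), Lhx1 to Tbx2 (1310 kb), Foxo1 to Nhlrc3 and Proser1 (1200 kb), Hmx2 to Nkx1-2 (1040 kb), Shh to Mnx1 (1010 kb) and Nkx2-1 to Foxa1 (1010 kb). When a gene start within 10 kb of the anchor was also accepted, a choice made after the values were seen, 28 of 56 control loops and 6 of 34 Brg1KD loops of this length were unmatched. For loops with a gene in both anchors but under 1 Mb, 39 of 177 control and 42 of 187 Brg1KD loops were unmatched, and for loops of 1 Mb or longer with no gene in an anchor, 60 of 169 and 55 of 154. With a gene in 1 anchor, 23 of 51 and 11 of 49 loops of 1 Mb or longer were unmatched. The labels at the anchors were often equal in the 4 libraries. Vax2 and Emx1 were in A.1.1 in all 4, and Ptf1a in A.2.2. Irx1 lay in B.2.2 in both controls and in B.2.1 in both Brg1KD libraries (limma, common variance, adjusted p = 0.236).

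**Figure D5:**
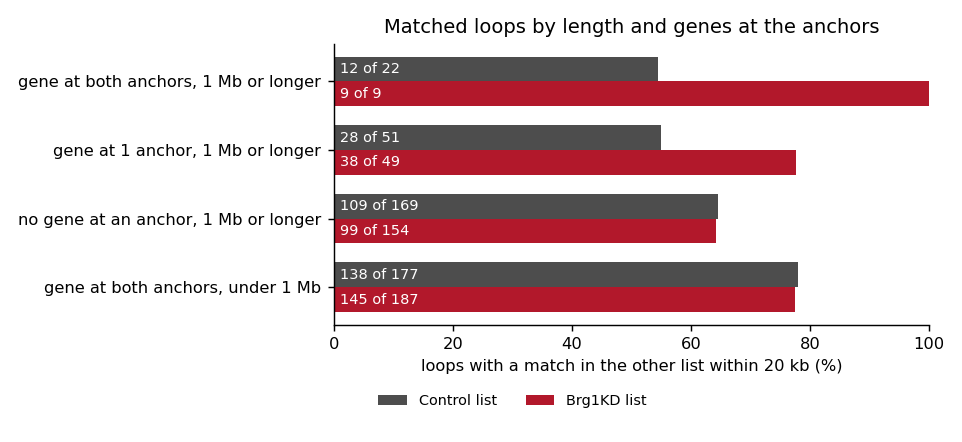
Bars give the percentage of loops with a partner in the other list, both anchors within 20 kb, for the control and the Brg1KD list, by length and by genes at the anchors; the counts are printed in the bars. Of control loops of 1 Mb or longer with a gene at both anchors 12 of 22 are matched, and of the Brg1KD loops 9 of 9.

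The longest unmatched Brg1KD loops with a gene in both anchors were under 1 Mb: Mtrr and Fastkd3 with Tent4a (950 kb), Palb2 and Dctn5 with Rbbp6 (840 kb), Cxxc1 with Rpl17 (780 kb), Wdyhv1 with Tatdn1 (750 kb), Hoxb6 and Hoxb7 with Sp6 (720 kb) and Klk4 with Emc10 (610 kb). The loops of Rbbp6, Tatdn1 and Sp6 had a control partner within 50 kb. Smarca4 itself anchored 2 loops, of 250 kb and 330 kb, in the Brg1KD list and none in the control list. Of the pluripotency genes, Tbx3 (100 kb) and Lifr, the LIF receptor (230 kb), had a loop in Brg1KD and no pluripotency gene had one in control. Smarca2, which encodes the alternative ATPase Brm, had 3 loops of 610 to 1000 kb, to Vldlr, Dmrt2 and Dmrt1, in both lists.

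The Brg1KD list held somewhat fewer loops than the control list where bins had left A, a difference between 2 merged lists that was not tested. In the A to B crossing bins the control list had 160 loops, of which 72.5% were matched, and the Brg1KD list 140, a ratio of 0.875, beside a ratio of 1.02 and 79.8% matched over all bins. In the B to A bins the counts were 49 and 48. In the larger set of all bins separated towards B they were 790 and 771, a ratio of 0.976, and in those separated towards A the ratio was 0.997. The bin at chr1:57400001-57450000, which holds Tyw5 and Maip1, was A.2.2 and A.2.1 in the controls, B.1.1 in both Brg1KD libraries, and A.2.2 and A.2.1 in Ino80KD. It anchored 6 control loops, 3 of them unmatched, and 5 in Brg1KD. Bins near Nkx1-1 (chr5:33400001-33450000) and Nat8l (chr5:33950001-34000000) each anchored 3 control loops and none in Brg1KD. Bins of deep B held more Brg1KD than control loops, at a ratio of 1.08 for B.2.1. For B.2.2 it was 1.05, close to the 1.02 over all bins. Bins of B.2.1 in both controls anchored 516 control and 557 Brg1KD loops, and bins of B.2.2 444 and 466, with 71.6% and 70.4% of the Brg1KD loops matched. The X chromosome, which has no subcompartment labels in these files, held 145 control and 165 Brg1KD loops, of which 73.1% and 64.2% were matched.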

How the data were processed

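Hi-C libraries of control and Brg1KD cells were analysed from the deposited subcompartment segments. The score column that the authors deposited is the rank of a segment's label in 8 equal steps; it is relative within a library and carries no depth. The submitters' processing notes name BWA, SAMtools, Juicer 2.0, HOMER, bedtools and mm10, without roles; the callers of subcompartments and loops are not given in the sources used here. Each segment was divided at 50 kb steps, giving 47717 autosomal bins with a label in all 6 libraries. Both the comparison and the gene lists were chosen with earlier results of these data known.

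Ranks were tested with limma 3.58.1 in R 4.3.3 over all bins (Benjamini-Hochberg, threshold 0.05, all 6 libraries in the fit). The planned moderated variances proved unsuited to these ranks on simulated data, so adjusted p-values in the text come from a fit with 1 variance common to all bins. The simulated bins all had the same spread, so the simulation cannot check that fit. In the data the spread depends on the label: between the control replicates 91.1% of A.1.1 and 51.2% of B.1.2 bins kept theirs. Shares and run lengths were compared by exact two-sided permutation. The labels name the replicate number as the batch, so libraries are paired by it; deviations from the group means correlated at 0.0984 between control and Brg1KD of a batch.

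Genes were placed by midpoint with RefSeq tables of GRCm38.p6. For loops, gene starts were used, or either gene end where the table gives no start, as on chromosome 18. Named were the 8 longest crossing runs each way, regions ranked 6 to 10 by limma, bins moving 3 classes or more in both batches, up to 4 separated members per list, loops of the pluripotency, BAF, INO80 and architecture lists, the 6 longest unmatched loops with genes at both anchors and the 3 bins with the most unmatched loops per list. Loops were matched when both anchor starts lay within 20 kb. Matched long loops and bins without genes were described after their values were seen.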

Additional observations from a re-analysis of the deposited data

How the results depend on the processing

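The share of bins in A differed between Brg1KD and control by -1.13 to -0.761 percentage points whichever library was left out, by -0.975 over every labelled bin, and by -0.944 in the paired comparison within batches (replicate block), the same as without it. The block gave 2547 limma calls in place of 2304 and moved no count by more than 1.5 times. limma called 3851 bins with only the 4 libraries and 1385 without border bins, and 4784 to 5499 with a library left out, where the lone library is assumed to vary like the other groups. Separated bins numbered 25156 on the percentile scale, 2664 without border bins and 9449 to 10602 with a library left out, more towards B than towards A in all of these but the percentile scale. Without border bins there were 236 A to B and 99 B to A crossings, and 93 and 48 of at least 2 classes in both batches. With a library left out there were 817 to 868 and 442 to 546. Bins towards B in both batches fell to 2181 without border bins, an alternative chosen after the data were seen, beside 850 towards A. Average run length differed by 0.95 to 12.4 kb with a library left out. Matching loops at 0, 10 or 50 kb kept 45.7%, 77.0% or 81.7% of control loops and left 55.1%, 24.4% or 20.0% of Brg1KD loops unmatched. Unmatched Brg1KD loops had a median 20 kb below that of unmatched control loops (a difference of -20.0 kb). Depth is unknown, 2 libraries a group cannot reach p under 0.05 in a permutation, and the loop lists have no replicates.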
